A study of Mus musculus with 9 samples.

Results

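The mRNA levels of 7 genes that control the decay of cytokine transcripts were measured in mouse plasmacytoid dendritic cells (pDCs), rare immune cells known for secreting large amounts of type I interferon. The genes were Zfp36, Zfp36l1 and Zfp36l2, which encode zinc finger proteins that bind AU-rich elements, Zc3h12a and Rc3h1, which encode the stem-loop decay factors regnase-1 and roquin-1, and Btg1 and Btg2, which encode antiproliferative proteins that bind deadenylases. They were chosen by name, and their symbols were matched to gene identifiers of the count table. All 7 were found among its 57126 genes, and all 7 were among the 17555 genes with enough counts to test. Sorted pDCs had received vehicle (PBS, phosphate-buffered saline), mitochondrial DNA (mtDNA) or its oxidized form (Ox-mtDNA), and each treatment had 3 polyA RNA libraries numbered 1 to 3. All groups carry the same cell type label. Strain, genotype, sex and age of the mice, the dose, the time of exposure and the way the DNA was made or oxidized are not given in the sources used here. The 3 comparisons asked how far each DNA changed these transcripts from vehicle, and whether the oxidized form differed from the other.

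ZFP36 proteins (ZFP36 is also called tristetraprolin) bind AU-rich elements in the 3′ untranslated region (UTR) of cytokine mRNAs and recruit the CCR4-NOT deadenylase, which shortens the poly(A) tail and starts decay. Regnase-1 is an endoribonuclease that cleaves stem-loops in the 3′ UTRs of Il6, Il12b and other inflammatory transcripts, and roquin-1 binds similar stem-loops, for example in Tnf and Icos, and also brings in CCR4-NOT. BTG1 and BTG2 bind the catalytic CCR4-NOT subunits, stimulate deadenylation and are known for keeping lymphocytes quiescent. Several of these genes are themselves induced by inflammatory signals and act as feedback on the transcripts they bind.

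Elements in 3′ UTRs and promoters show what is encoded at the genes themselves. The nonamer TTATTTATT, a core AU-rich element bound by ZFP36 proteins, was searched on the sense strand of the longest annotated 3′ UTR of each gene (GENCODE M21). It occurred once in Zfp36, Zfp36l1, Zfp36l2 and Rc3h1 and 0 times in Zc3h12a, Btg1 and Btg2, whereas Tnf, the best known ZFP36 target, held 5 overlapping copies. Of 12572 tested genes with a 3′ UTR, 8.06% held at least 1 copy and 0.644% held 3 or more. The sites are shown because the 3 ZFP36 transcripts carry the element their own proteins bind, with the nonamer in capitals and 10 bases on either side. They lie at bases 589 to 597 of 774 in Zfp36, 1404 to 1412 of 1835 in Zfp36l1, 821 to 829 of 1822 in Zfp36l2, 2256 to 2264 of 7181 in Rc3h1 and 449 to 457 of 764 in Tnf (its site 3), counted from the first 3′ UTR base.
Zfp36: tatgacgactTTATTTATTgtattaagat
Zfp36l1: aactgttggaTTATTTATTttagaaattc
Zfp36l2: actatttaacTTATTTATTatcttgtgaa
Rc3h1: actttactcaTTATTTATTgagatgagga
Tnf: tatttattatTTATTTATTatttatttat

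Promoters of 6 of the 7 genes were in the RefSeq table (build GRCm38.p6), the exception being Zfp36l2. Both strands of the 250 bases before each start were searched for the CArG box bound by serum response factor (CC, then 6 of A or T, then GG), the cAMP response element TGACGTCA, the AP-1 element TGANTCA, the NF-kB element and the heat shock element. Zfp36 held a CArG box at bases -58 to -49, which also contains the TATA-like run ATAAAA, and 1.47% of 32851 promoters hold a CArG box. Btg2 held a cAMP response element at -166 to -159 (1.55% of promoters). Zfp36l1 and Rc3h1 each held an AP-1 element, TGATTCA at -129 to -123 and TGACTCA at -133 to -127 (6.75% of promoters). Zc3h12a and Btg1 held none of the 5 in this window, and no member promoter had the NF-kB element (7.25% of promoters) or the heat shock element (0.466%). A match describes letters and not a bound site. Zfp36 is shown because its level differed most between groups, and Btg2 for contrast, since it holds a signal-responsive element while its group means lay close together. Both lie on the minus strand, at chr7:28379229-28379478 and chr1:134079156-134079405, with the matched element in capitals.
Zfp36: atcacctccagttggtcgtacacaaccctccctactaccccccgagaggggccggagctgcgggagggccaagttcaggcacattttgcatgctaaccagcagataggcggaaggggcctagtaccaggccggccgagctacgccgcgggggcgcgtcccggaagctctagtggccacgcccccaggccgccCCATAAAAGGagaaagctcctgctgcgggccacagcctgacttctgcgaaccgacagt
Btg2: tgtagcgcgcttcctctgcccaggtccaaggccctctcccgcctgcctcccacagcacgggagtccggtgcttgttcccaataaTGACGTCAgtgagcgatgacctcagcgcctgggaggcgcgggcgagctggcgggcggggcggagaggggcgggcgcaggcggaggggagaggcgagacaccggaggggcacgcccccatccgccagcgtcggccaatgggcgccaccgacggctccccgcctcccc

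Total counts per library ranged from 16029951 to 25378884. Siglech, which marks mouse pDCs, lay between 1190 and 2440 CPM (read counts scaled to a common library size) in the 9 libraries, and none of the 17 pDC markers was at 0 everywhere. Their summed level was 11300 to 14900 CPM in PBS, 9400 to 12600 CPM after mtDNA and 5990 to 12800 CPM after Ox-mtDNA, with the lowest sum in Ox-mtDNA replicate 2. In Ox-mtDNA against PBS, 14 of the 17 had a negative fold change (median -0.68), with 0 called after adjustment. An edgeR unadjusted p under 0.05 was reached by 6, all lower, where 3.93% of all genes were lower. Transcripts of the 12 B cell markers were present too, at sums of 2640 to 3410, 1840 to 3120 and 2930 to 3230 CPM in the same order, and most of that was Ighm. All 12 had a negative fold change in mtDNA against PBS (median -0.72). Of these, 1 was lower at an edgeR unadjusted p under 0.05, where 0.598% of all genes were. The part of these cell type transcripts in the levels of the 7 genes was not tested. The 11 T cell markers summed to 172 to 370 CPM, mostly from Cd28 (126 to 320 CPM), with Lck at 12.9 to 24.4 CPM and Cd3e, a subunit of the T cell receptor complex, at 0 to 1.14 CPM. The 6 red cell markers summed to under 1 CPM (0.163 to 0.641). In bulk libraries, fewer cells of a type and less RNA per cell cannot be told apart. Of the pDC markers, Pacsin1, Tlr9, Spib and Atp1b1 were lowest in replicate 3 of every group. In PBS replicates 1, 2 and 3, Pacsin1 measured 215, 276 and 5.62 CPM and Tlr9 256, 285 and 11.6 CPM. Irf8 and Runx2 were lowest in replicate 3 of PBS and mtDNA, whereas Siglech, Bst2 and Ptprc were highest in replicate 3 of PBS. The libraries numbered 3 stood apart from those numbered 1 and 2 in every group for 3 of the 7 genes (Zfp36l1, Zfp36l2 and Zc3h12a), as described below, so the fold changes of the 7 genes are given with all 9 libraries and with replicates 1 and 2 only.

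Zfp36 (ENSMUSG00000044786, minus strand of chromosome 7, bases 28076209 to 28079678 of GRCm39) encodes tristetraprolin itself, an inducible repressor of Tnf. Its level was 79.6, 73.6 and 37.5 CPM in PBS replicates 1, 2 and 3, 99.7, 91.0 and 326 CPM after mtDNA, and 741, 328 and 145 CPM after Ox-mtDNA. All 3 Ox-mtDNA libraries were above all 3 PBS libraries, and so were the mtDNA libraries, although mtDNA replicates 1 and 2 exceeded PBS only narrowly. The PBS libraries averaged 63.6 ± 22.8 CPM (SD, n = 3). The mean was 405 ± 305 CPM with Ox-mtDNA and 172 ± 133 CPM with mtDNA (SD, n = 3 each). The log2 fold change of Ox-mtDNA against PBS was 2.67 (SE 0.745), and libraries of the same number differed by 3.22, 2.16 and 1.95. In edgeR's quasi-likelihood test its unadjusted p was 0.00697 and its Benjamini-Hochberg adjusted p over all tested genes was 0.472, above the threshold of 0.05. DESeq2 gave a log2 fold change of 2.66 and an adjusted p of 0.0291, which is past the threshold, and called 370 of 17429 genes (2.12%). Those 17429 are the genes to which DESeq2 gave an adjusted p, out of 17555, so a gene it did not call may have had none. In replicates 1 and 2 only, edgeR gave 2.81 with an adjusted p of 0.101, and with the replicate number as a block it gave 2.57 with an adjusted p of 0.149.

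The difference of Zfp36 between mtDNA and PBS rested on 1 library. Its log2 fold change was 1.44 (SE 0.714, edgeR adjusted p = 1), while libraries of the same number differed by 0.32, 0.31 and 3.12. Without mtDNA replicate 3 the fold change was 0.54, and in replicates 1 and 2 only it was 0.31. Between the DNA forms the replicates did not share a sign. Ox-mtDNA exceeded mtDNA by 2.89 and 1.85 in replicates 1 and 2 but not in replicate 3 (log2 difference -1.17). In replicate 3 the highest mtDNA library (326 CPM) met the lowest Ox-mtDNA library (145 CPM). The fitted log2 fold change of Ox-mtDNA against mtDNA was 1.23 (SE 0.71, edgeR adjusted p = 1), and it was 2.10 without mtDNA replicate 3 and 2.5 in replicates 1 and 2 only (edgeR adjusted p = 0.554 and 0.12). The limma-voom fit that took the replicate number as a random block, an alternative added after seeing the data, called Zfp36 here (2.22, adjusted p = 0.0289) among 703 of 17555 genes.

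Zfp36l1 (ENSMUSG00000021127, minus strand of chromosome 12, bases 80154528 to 80159787) encodes a paralogue that binds the same elements. It measured 158, 166 and 12.3 CPM in PBS, 169, 209 and 88.7 CPM after mtDNA, and 394, 301 and 68.0 CPM after Ox-mtDNA. In every group replicate 3 was the lowest library, so the ranges of the groups overlapped, yet within each replicate number Ox-mtDNA exceeded PBS. Those differences were 1.31, 0.86 and 2.45 on the log2 scale, and the fitted fold change was 1.18 (SE 0.935, edgeR adjusted p = 0.823). In replicates 1 and 2 only the fold change was 1.11 with an edgeR adjusted p of 0.149. Against PBS, mtDNA gave 0.47 (SE 0.925), and replicates 1, 2 and 3 gave gaps of 0.10, 0.33 and 2.84. Ox-mtDNA exceeded mtDNA by 1.22 and 0.52 in replicates 1 and 2 but not in replicate 3 (log2 difference -0.38), and the fitted value was 0.71 (SE 0.927). Fitted on replicates 1 and 2 only, the mtDNA fold change was 0.22 (SE 0.224), and Ox-mtDNA against mtDNA gave 0.89 (SE 0.226, edgeR adjusted p = 0.197).

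Zfp36l2 (ENSMUSG00000045817, minus strand of chromosome 17, bases 84491359 to 84495375) encodes the family member known from lymphocyte and oocyte development. It measured 396, 325 and 5.69 CPM in PBS, 310, 313 and 4.24 CPM after mtDNA, and 467, 286 and 3.51 CPM after Ox-mtDNA. The replicate 3 libraries held only 150, 78 and 68 counts of this gene, against 5401 to 8504 in the others. Treatment differences were small beside that gap. The fitted log2 fold changes were 0.06 (SE 1.83) for Ox-mtDNA against PBS, -0.21 (SE 1.83) for mtDNA against PBS and 0.27 (SE 1.83) between the DNA forms. In Ox-mtDNA against PBS the replicates differed by 0.24, -0.19 and -0.68, with no common sign. Without replicate 3 of every group, the 3 fold changes were 0.07 (SE 0.277), -0.21 (SE 0.278) and 0.28 (SE 0.278), none past the threshold in edgeR.

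**Figure D1:**
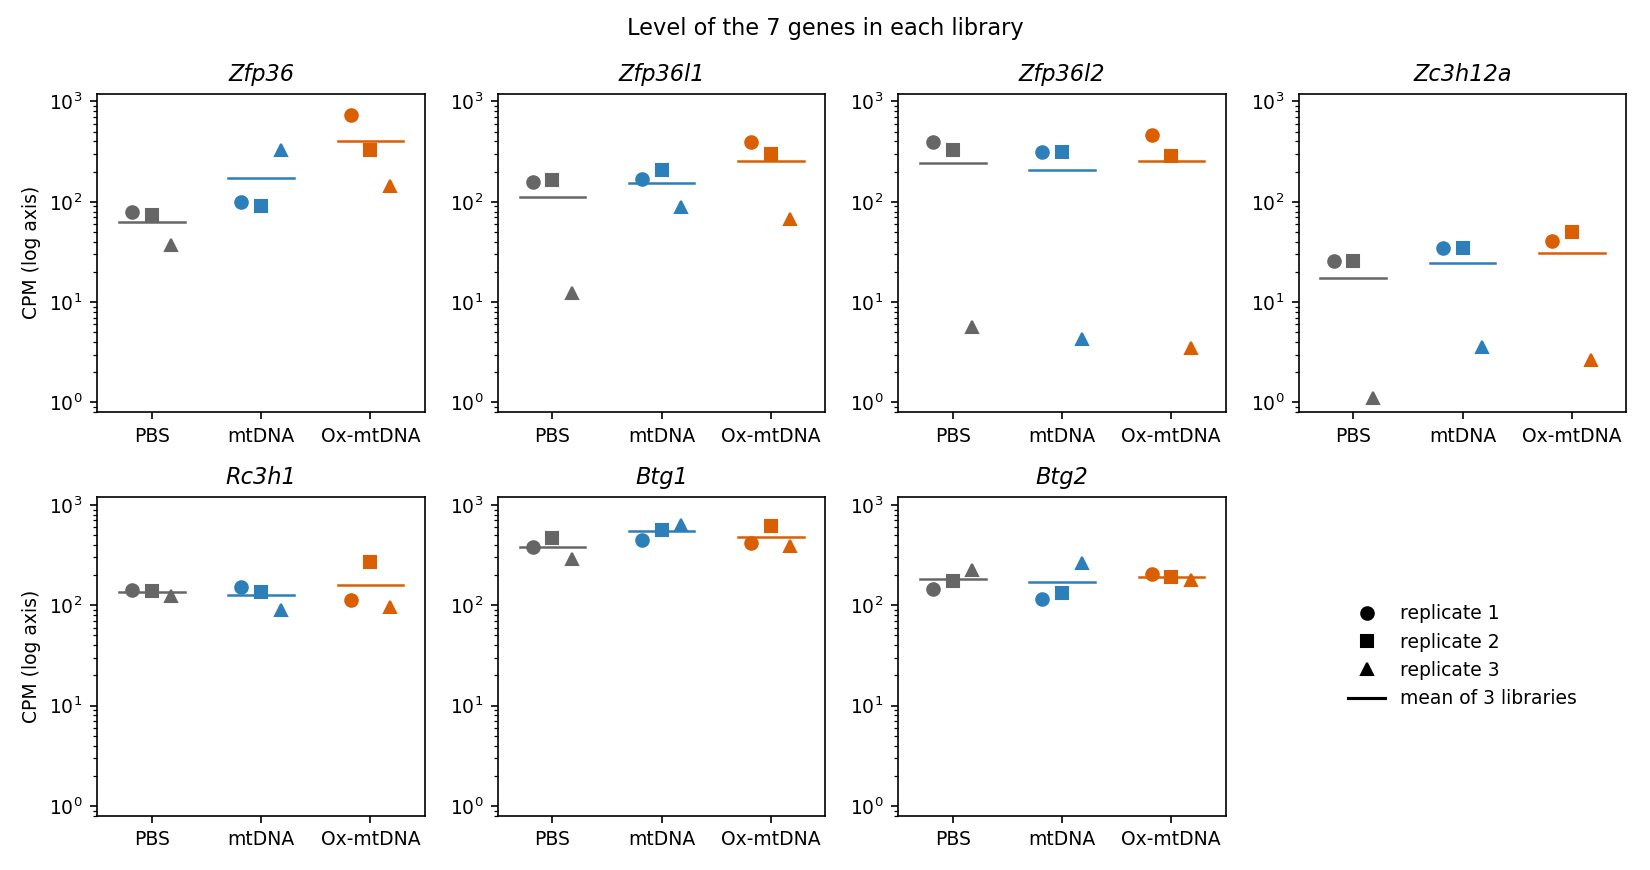
Level of each of the 7 genes in each of the 9 libraries, in CPM on a log axis, by treatment; symbols mark the replicate number and lines the mean of 3 libraries. Zfp36 lies between 37.5 and 79.6 CPM in PBS and between 145 and 741 CPM after Ox-mtDNA, while the replicate 3 triangles of Zfp36l2 lie at 3.51 to 5.69 CPM in all 3 groups.

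Zc3h12a (ENSMUSG00000042677, minus strand of chromosome 4, bases 125012216 to 125021633) encodes regnase-1. Its level was 25.7, 25.6 and 1.10 CPM in PBS, 34.9, 35.0 and 3.53 CPM after mtDNA, and 40.4, 49.8 and 2.63 CPM after Ox-mtDNA. Replicate 3 was again far below the others, and within each replicate number both treatments were above PBS. Ox-mtDNA exceeded PBS by 0.65, 0.96 and 1.18 (fitted log2 fold change 0.82, SE 1.33, edgeR adjusted p = 0.982) and mtDNA exceeded PBS by 0.44, 0.45 and 1.60 (fitted 0.48, SE 1.32, edgeR adjusted p = 1). With the replicate number as a block, the SE of Ox-mtDNA against PBS was 0.294 (fold change 0.91, edgeR adjusted p = 0.179). One of the alternative fits called it after mtDNA: limma-voom, with the replicate block and a quality weight for each sample, gave 0.46 with an adjusted p of 0.0356, in a comparison where it called 1337 of 17555 genes (7.62%). Between the DNA forms the fitted value was 0.34 (SE 1.32), and the replicates differed by 0.21, 0.51 and -0.41. In replicates 1 and 2 only, edgeR gave 0.82 (SE 0.207, adjusted p = 0.19) for Ox-mtDNA against PBS, 0.44 (SE 0.206, adjusted p = 1) for mtDNA against PBS and 0.38 (SE 0.205, adjusted p = 0.458) between the DNA forms.

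Rc3h1 (ENSMUSG00000040423, plus strand of chromosome 1, bases 160733988 to 160802548) encodes roquin-1, which restrains follicular helper T cells through Icos. It measured 143, 139 and 124 CPM in PBS, 153, 136 and 90.1 CPM after mtDNA, and 113, 271 and 96.1 CPM after Ox-mtDNA. One library, Ox-mtDNA replicate 2, was high, and the other 8 lay between 90.1 and 153 CPM. The log2 fold change of Ox-mtDNA against PBS was 0.24 (SE 0.417, edgeR adjusted p = 0.991), with replicate differences of -0.34, 0.96 and -0.37. For mtDNA against PBS it was -0.10 (SE 0.416), and between the DNA forms it was 0.34 (SE 0.417). Fitted on replicates 1 and 2 only, the values were 0.45 (SE 0.404), 0.03 (SE 0.403) and 0.42 (SE 0.404) in the same order. Its paralogue Rc3h2 was high in the same library, at 157 CPM against 54.8 to 81.8 CPM elsewhere. That library also had the lowest summed level of pDC markers, at 5990 CPM against 9400 to 14900 CPM elsewhere. Several B cell markers other than Ighm were highest in it, with Cd79a at 182 CPM against 33.4 to 80.9 CPM elsewhere, Ms4a1 at 113 against 18.5 to 51.1, Pax5 at 106 against 6.04 to 59.2 and Ebf1 at 55.5 against 9.6 to 23.1. Cd79b (67.7 CPM), Ighd (94.5 CPM), Cd22 (22.7 CPM), Fcer2a (4.55 CPM) and Ighm were not highest in it. The B cell sum of 3230 CPM there was below the 3410 CPM of PBS replicate 3. Lyz2, 1 of 10 markers of monocytes and macrophages, was highest in Ox-mtDNA replicate 2, at 154 CPM against 22.3 to 78.3 CPM. The sum of those 10 markers was instead lowest there, at 785 CPM against 1020 to 2370 CPM elsewhere. Ccr2 (168 CPM), Csf1r (104 CPM) and Ly6c2 (228 CPM) of that list were also lowest in it. The part of these transcripts in the level of Rc3h1 was not tested.

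Btg1 (ENSMUSG00000036478, plus strand of chromosome 10, bases 96452868 to 96458671) is abundant in resting lymphocytes. It measured 381, 463 and 290 CPM in PBS, 447, 558 and 634 CPM after mtDNA, and 418, 613 and 393 CPM after Ox-mtDNA. Both treatments exceeded PBS in all 3 replicate numbers, by 0.13, 0.40 and 0.44 for Ox-mtDNA and by 0.23, 0.27 and 1.13 for mtDNA, although the ranges of the groups overlapped. The fitted log2 fold changes were 0.33 (SE 0.292, edgeR adjusted p = 0.864) and 0.53 (SE 0.292, edgeR adjusted p = 1). For Ox-mtDNA against mtDNA the value was -0.20 (SE 0.291). Without replicate 3 of every group, the 3 values were 0.29, 0.25 and 0.04 (SE 0.26 each), for Ox-mtDNA and mtDNA against PBS and between the DNA forms.

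Btg2 (ENSMUSG00000020423, minus strand of chromosome 1, bases 134002908 to 134006858) is a p53 target and in many cells an early response gene. It measured 146, 176 and 223 CPM in PBS, 116, 134 and 264 CPM after mtDNA, and 207, 192 and 178 CPM after Ox-mtDNA. The groups overlapped, and the fitted log2 fold changes were 0.08 (SE 0.348) for Ox-mtDNA against PBS, -0.08 (SE 0.348) for mtDNA against PBS and 0.16 (SE 0.348) between the DNA forms. In replicates 1 and 2 it was lower after mtDNA than in PBS (log2 differences -0.33 and -0.39) and higher after Ox-mtDNA than after mtDNA (0.83 and 0.52), and replicate 3 had the opposite sign in both comparisons (0.24 and -0.57). In replicates 1 and 2 only, the edgeR fold change between the DNA forms was 0.68 (SE 0.202, adjusted p = 0.229), and it was 0.31 (SE 0.201) for Ox-mtDNA and -0.36 (SE 0.201) for mtDNA against PBS.

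Across the 7 genes, edgeR called 0 of 7 at an adjusted p under 0.05 in each of the 3 comparisons, where it called 0 of 17555 genes (0.0%). At an unadjusted p under 0.05, 1 of 7 (Zfp36) was higher in Ox-mtDNA than in PBS, where 5.88% of all tested genes were higher and 3.93% lower. In mtDNA against PBS the count was 0 of 7 (2.02% of all genes higher, 0.598% lower), and in Ox-mtDNA against mtDNA it was also 0 of 7 (0.923% higher, 1.48% lower). Some of the counts were larger in fits that took the replicate number as a block or left out replicate 3. With the replicate block, 3 of 7 were higher in Ox-mtDNA than in PBS at an edgeR unadjusted p under 0.05 (Zfp36 0.00739, Zc3h12a 0.0147 and Zfp36l1 0.0205), beside 11% of all genes. In mtDNA against PBS, the block gave 2 of 7 (Zc3h12a 0.0258 and Btg1 0.0419), beside 4.02% of all genes, and in Ox-mtDNA against mtDNA it gave 0 of 7 (3.43%). The edgeR counts in replicates 1 and 2 only were 3 of 7 in Ox-mtDNA against PBS (Zfp36, Zfp36l1 and Zc3h12a; 8.82% of all genes), 0 of 7 in mtDNA against PBS (1.83%) and 3 of 7 in Ox-mtDNA against mtDNA (Zfp36, Zfp36l1 and Btg2; 7.84%). The ranges of 3 libraries did not overlap for 1 of 7 genes, Zfp36, both in Ox-mtDNA against PBS (7.39% of all genes were separated with the treated group higher) and in mtDNA against PBS (5.58%). No member was separated with the treated group lower (8.08% and 4.96% of all genes were). For Ox-mtDNA against mtDNA all 7 overlapped (2.04% and 2.79% of all genes were separated higher and lower). Zfp36, Zfp36l1, Zc3h12a and Btg1 were higher in all 3 replicate numbers both in Ox-mtDNA against PBS, where 20.0% of all genes were, and in mtDNA against PBS, where 20.8% were. Both comparisons share their PBS libraries. For Ox-mtDNA against mtDNA, 0 of 7 were higher in all 3 (15.1% of all genes). DESeq2 called Zfp36 alone in Ox-mtDNA against PBS, and called 0 of 7 in mtDNA against PBS (0.0516% of all genes) and 0 of 7 in Ox-mtDNA against mtDNA (0.00574%). The limma-voom fit with weights and block called Zc3h12a alone in mtDNA against PBS, and called 0 of 7 in the comparisons of Ox-mtDNA with PBS (2.41% of all genes) and with mtDNA (0.0797%). With the replicate block, edgeR called 0 of 7 in Ox-mtDNA against PBS (0.0057% of all genes).

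**Figure D2:**
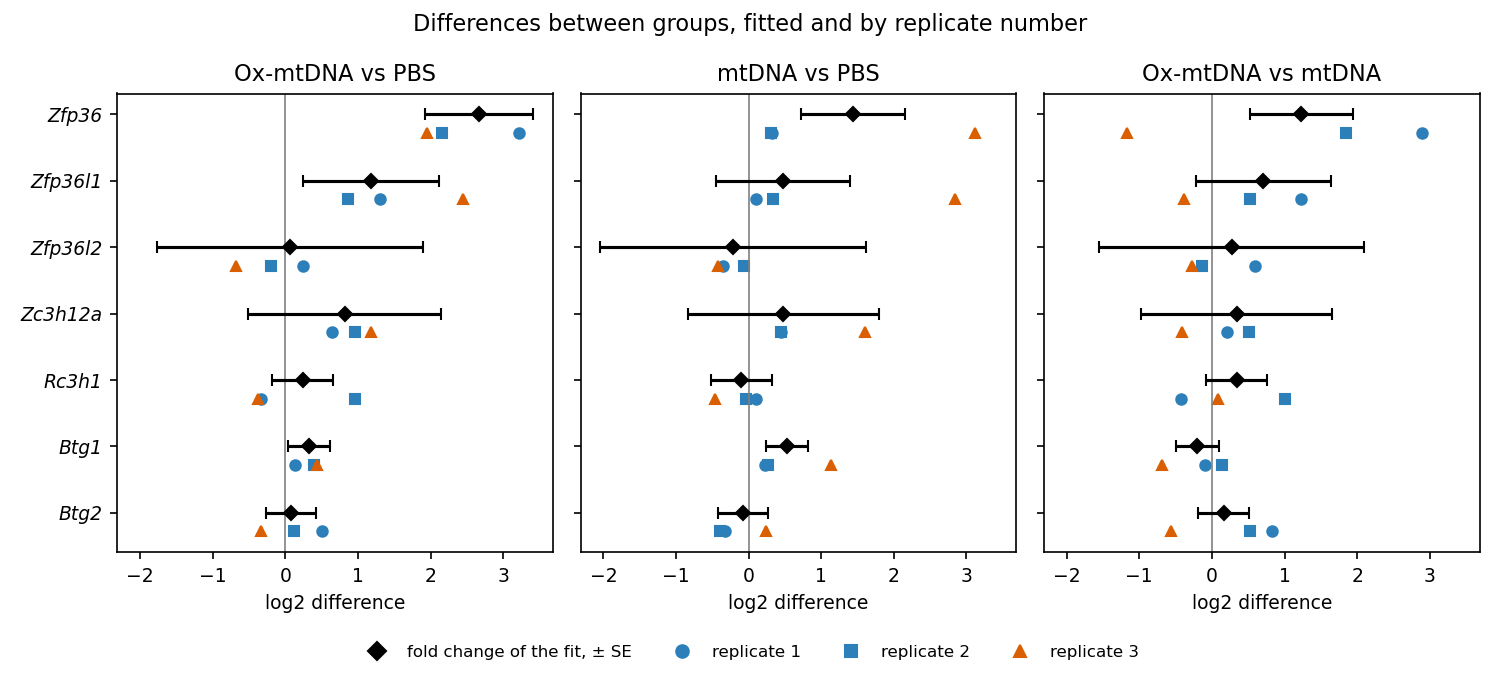
Log2 differences between groups for the 7 genes in the 3 comparisons; diamonds and bars are the fitted fold changes ± SE, and blue and orange symbols compare the libraries that carry the same number. Zfp36 lies at 1.95 to 3.22 in every replicate number of Ox-mtDNA against PBS, whereas in mtDNA against PBS its replicates 1 and 2 lie at 0.32 and 0.31 and its replicate 3 at 3.12.

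Per kilobase of exon, the highest mean levels in PBS were those of Btg1 at 71.7 ± 16.5 CPM per kb (SD, n = 3), Zfp36l2 at 68.6 ± 58.9 and Btg2 at 66.3 ± 14.2. Zfp36l1 followed at 37.5 ± 29 CPM per kb, Zfp36 at 18.3 ± 6.57, Rc3h1 at 12.3 ± 0.929 and Zc3h12a at 6.35 ± 5.15. Each gene's range of libraries overlapped that of the next in this order, except that Rc3h1 (11.3 to 13 CPM per kb) lay above Zc3h12a (0.40 to 9.34). After Ox-mtDNA, Zfp36 had the highest mean, at 117 ± 87.9 CPM per kb, followed by Btg1 at 90.0 ± 22.9, Zfp36l1 at 85.1 ± 56.2, Zfp36l2 at 71.4 ± 66.1 and Btg2 at 70.0 ± 5.29. Rc3h1 at 14.5 ± 8.75 and Zc3h12a at 11.2 ± 9.06 stayed at the low end, and the only gap between neighbours in this order was between Btg2 and Rc3h1. After mtDNA, Zfp36 stood at 49.6 ± 38.4 CPM per kb, behind Btg1 at 104 ± 17.8, Btg2 at 62.6 ± 29.4, Zfp36l2 at 59.2 ± 50.2 and Zfp36l1 at 52.1 ± 20.5.

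Replicate 3 differed from replicates 1 and 2 far more for some of the 7 genes than any treatment did. Zfp36l2 differed from the mean of replicates 1 and 2 by log2 values of -5.95 in PBS, -6.16 after mtDNA and -6.66 after Ox-mtDNA. For Zc3h12a the log2 differences were -4.42, -3.27 and -4.04, and for Zfp36l1 they were -3.71, -1.08 and -2.34. Rc3h1 differed by -0.19, -0.68 and -0.87, Btg1 by -0.54, 0.34 and -0.37, and Btg2 by 0.48, 1.08 and -0.16, with little common direction for the BTG genes. Zfp36 was lower in replicate 3 of PBS (-1.03) and Ox-mtDNA (-1.76) and higher in replicate 3 of mtDNA (1.77).

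The gap was set beside that of genes with similar base composition, and the members did not all follow their GC neighbours. Genes within 1 percentage point of the GC content of Zc3h12a (57.1%) had medians of -1.79, -1.42 and -1.26 in the same measure, and those near Zfp36l2 (54.8%) had medians of -0.74, -0.56 and -0.40, whereas those near Rc3h1 (41.7%) had medians of 0.48, 0.23 and 0.22. Zfp36l2 lay well below its GC neighbours, of which 2.08%, 1.26% and 0.631% were lower still in PBS, mtDNA and Ox-mtDNA. Zfp36l1 (49.0% GC) lay below neighbours whose medians were 0.25, 0.08 and 0.15, and 2.21%, 19.2% and 5.30% of them were lower still. For Zc3h12a, 21.7%, 27.6% and 15.8% of its neighbours were lower. Zfp36 has nearly the GC content of Zfp36l2 (54.1%) and neighbour medians of -0.48, -0.41 and -0.25, and 39.4%, 95.4% and 19.7% of those neighbours were lower than it. The part of base composition in the levels of replicate 3 was not tested. Counting was without strand, and exons of Zfp36 and Zfp36l2 overlap an opposite-strand gene over 125 and 106 bases. The overlapping gene of Zfp36, Gm44710, had at most 302 counts per library, against 988 to 10971 for Zfp36. The one of Zfp36l2, AC132455.1, had 564 to 804 counts in replicates 1 and 2 and 25 to 46 in replicate 3.

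**Figure D3:**
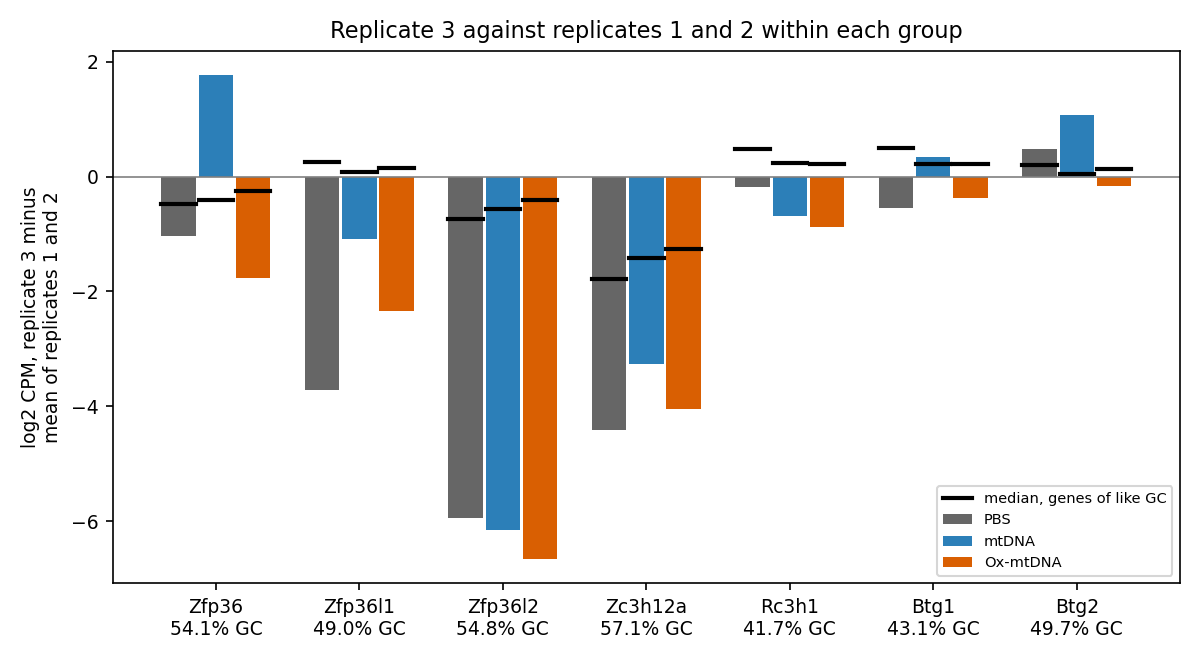
Log2 CPM of replicate 3 minus the mean of replicates 1 and 2 within each treatment for the 7 genes (bars), with each gene's GC content; black lines are medians of tested genes within 1 percentage point of that GC content. Zfp36l2 lies at -5.95 to -6.66 against lines at -0.74 to -0.40, and Btg2 lies at 0.48, 1.08 and -0.16.

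The decay machinery that the 7 proteins recruit had median fold changes close to those of all genes. Of 14 genes of CCR4-NOT and other deadenylases, 0 had an edgeR unadjusted p under 0.05 in any comparison of all 9 libraries. Their median log2 fold change in Ox-mtDNA against PBS was -0.01 beside 0.06 for all genes. Cnot8, a catalytic subunit that BTG proteins bind, had the smallest p of them there (log2 fold change 0.62, SE 0.38, edgeR adjusted p = 0.694). In Ox-mtDNA against PBS, 3.93% of all genes were lower at an edgeR unadjusted p under 0.05. Of 18 decapping and 5′ decay genes, 2 had such a p, both lower, with a list median of -0.07. They were Dcp2, the decapping enzyme, and Lsm1, a subunit of the ring that binds deadenylated ends. Dcp2 measured 154, 135 and 182 CPM in PBS, 160, 134 and 60.2 CPM after mtDNA and 64.5, 85.6 and 43.1 CPM after Ox-mtDNA, so all 3 Ox-mtDNA libraries were below all PBS libraries (log2 fold change -1.28, SE 0.412, edgeR adjusted p = 0.472). Lsm1 had a log2 fold change of -0.74 (SE 0.296, edgeR adjusted p = 0.482). Of 16 exosome and 3′ decay genes and 16 other proteins that bind cytokine mRNAs, 0 had an edgeR unadjusted p under 0.05 in any comparison of all 9 libraries. Their medians in Ox-mtDNA against PBS were -0.04 and 0.16. In replicates 1 and 2 only, 1 deadenylase gene was higher at that p in Ox-mtDNA against PBS, and 1 exosome gene was lower. Of the 16 binding proteins, 2 were higher and 2 lower there (8.82% of all genes higher, 1126 of 17151 lower). In Ox-mtDNA against mtDNA the deadenylase and exosome counts were the same, and 3 binding proteins were higher (7.84% of all genes higher, 1232 of 17151 lower). Limma-voom with the random block called Dcp2 (-1.24, adjusted p = 0.0266) and Pum2 (-0.83, adjusted p = 0.0472) lower in Ox-mtDNA than in PBS, among 1034 of 17555 genes. Against mtDNA it called Dcp2 lower (-1.23, adjusted p = 0.0348) and Cnot8 higher (0.89, adjusted p = 0.037), among 703 genes.

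Of the 10 relatives of the 7 genes, 8 were tested and Zfp36l3 and Btg4 had too few counts. Btg3, another BTG family member, measured 7.68, 6.75 and 5.54 CPM in PBS, 7.26, 8.16 and 39.9 CPM after mtDNA, and 42.5, 37.4 and 37.6 CPM after Ox-mtDNA. Its Ox-mtDNA libraries lay close together and above every PBS library, and mtDNA replicate 3 was at the Ox-mtDNA level while mtDNA replicates 1 and 2 were at the PBS level. The log2 fold change of Ox-mtDNA against PBS was 2.56 (SE 0.658, edgeR adjusted p = 0.472), it passed the threshold in DESeq2 (2.56, adjusted p = 0.0204), and edgeR on replicates 1 and 2 only gave 2.47 with an adjusted p of 0.0374, where 25 of 17151 genes were called (0.146%). Zc3h12c, a regnase relative, measured 86.3, 103 and 62.2 CPM in PBS, 123, 131 and 249 CPM after mtDNA and 168, 106 and 177 CPM after Ox-mtDNA. Both treated groups were above PBS in all 3 libraries (log2 fold changes 1.0 for mtDNA, edgeR unadjusted p = 0.027 and adjusted p = 1, and 0.84 for Ox-mtDNA, edgeR adjusted p = 0.518). Zc3h12d, another regnase relative, went the other way, at 24.6, 27.7 and 1.97 CPM in PBS, 15.4, 13 and 1.52 CPM with mtDNA and 13.6, 13.2 and 3.15 CPM with Ox-mtDNA. Its mtDNA fold change was -0.86 (SE 1.08, edgeR adjusted p = 1), and the limma-voom fit with weights and block called it lower (-0.86, adjusted p = 0.0135). Tob1, Tob2 and N4bp1, like Rc3h1, were highest in Ox-mtDNA replicate 2, at 44.2, 171 and 156 CPM.

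In Ox-mtDNA against PBS, 5.88% of all genes were higher and 3.93% lower at an edgeR unadjusted p under 0.05. Among 18 kinases, proteases and partners that act on the 7 proteins, 1 was higher, a share near that of all genes. That was Dusp1, a phosphatase that switches off the p38 kinase pathway by which ZFP36 is inactivated, at 7.02, 5.05 and 2.01 CPM in PBS, 13.5, 11.4 and 90.5 CPM after mtDNA and 272, 128 and 118 CPM after Ox-mtDNA. The 3 groups did not overlap (Ox-mtDNA against PBS: log2 fold change 5.20, SE 1.02, edgeR adjusted p = 0.472). In replicates 1 and 2 only edgeR gave 5.05 with an adjusted p of 0.0374. DESeq2 did not call Dusp1 on all 9 libraries but did on the 6 of the comparison (5.23, adjusted p = 4.83e-12). Mapkapk2, the p38-activated kinase that phosphorylates ZFP36, measured 388 to 535 CPM in the libraries numbered 1 and 2 and 4.71 to 8.36 CPM in those numbered 3, a gap like that of Zfp36l2. Mapkapk2, Tnf, Rc3h2, Zc3h12d, Tob1, Tob2 and N4bp1 were singled out after their values were seen.

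Transcripts known as targets of ZFP36, regnase-1 or roquin were mostly higher after either DNA. Of 32 listed, 26 were tested; in Ox-mtDNA against PBS, 22 had a positive and 4 a negative fold change, with a median of 1.61 beside 0.06 for all genes, and 11 had an edgeR unadjusted p under 0.05, all higher, where 5.88% of all genes were. With the adjusted p, edgeR called 0 of 26. DESeq2 called 5 higher (Cxcl1, Cxcl2, Fos, Il1b and Ptgs2), where it called 2.12% of all genes. The limma-voom fit with weights and block called 5 higher, where it called 2.41% of all genes. DESeq2 on the 6 libraries of this comparison, added after seeing the data, also called Tnf, Ccl3, Ccl4, Nfkbiz and Bhlhe40, among 428 of 16435 genes. Tnf, whose nonamer cluster is shown above, measured 10.7, 6.50 and 2.81 CPM in PBS, 21.2, 12 and 85.9 CPM after mtDNA and 34.6, 34 and 35.6 CPM after Ox-mtDNA. Both treated groups were above all PBS libraries (log2 fold changes 2.38 for Ox-mtDNA, SE 0.776, edgeR adjusted p = 0.472, and 2.57 for mtDNA, SE 0.782, edgeR adjusted p = 1). Fos, an immediate-early transcription factor, had the largest gap among the 3 targets of smallest p (log2 fold change 5.98, SE 1.58), before Ptgs2, the inducible prostaglandin synthase (5.65, SE 1.69), and Cxcl1, a neutrophil chemokine (3.25, SE 0.737). The DESeq2 adjusted p of these 3 were 0.000593, 0.00355 and 0.0073. Cxcl1 was low throughout, at 0.103 to 0.326 CPM in PBS and at most 3.07 CPM in any library. Ptgs2 was low in PBS (0.258 to 2.09 CPM) and measured 31.9 to 65.6 CPM after Ox-mtDNA.

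After mtDNA the targets' median log2 fold change was 1.23, with 24 of 26 positive and 11 higher at an edgeR unadjusted p under 0.05, where 2.02% of all genes were. With the adjusted p edgeR called 0 of 26, and DESeq2 called Ptgs2, where it called 0.0516% of all genes. The limma-voom fit with weights and block called 6 higher (Cxcl1, Cxcl10, Icos, Il12b, Il1b and Il6), where it called 7.62% of all genes. That median came largely from replicate 3, since the list's median difference was 0.54 and 0.48 in replicates 1 and 2 and 2.33 in replicate 3, and in replicates 1 and 2 only the fitted median was 0.44 with 3 such genes. Il12b, a subunit of interleukin 12 and a regnase-1 target, measured 0.837, 0.670 and 0.342 CPM in PBS, 2.51, 2.37 and 15.4 CPM after mtDNA and 0.270, 0.741 and 1.13 CPM after Ox-mtDNA. It was the target with the smallest p both in mtDNA against PBS (log2 fold change 3.45, SE 0.933, edgeR adjusted p = 1, and 2.02 with an adjusted p of 0.0202 in limma-voom with weights and block) and in Ox-mtDNA against mtDNA (-3.22, SE 0.925, edgeR adjusted p = 1), and all 3 mtDNA libraries were above the other 6. Its levels were low throughout. For Ox-mtDNA against mtDNA the targets' median was 0.07 with 16 positive and 10 negative.

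Immediate-early genes, a list that also marks handling stress, were higher alongside Zfp36. The list shares Fos, Ier3 and Myc with the targets. Of 29 genes, 28 had a positive fold change in Ox-mtDNA against PBS (median 2.34), and 14 were higher at an edgeR unadjusted p under 0.05, where 5.88% of all genes were. After adjustment edgeR called 0 of 29 with all libraries and 3 in replicates 1 and 2 only (0.146% of all genes). DESeq2 called 8, among them Fos, Jun, Nr4a1 and Fosl2 (2.12% of all genes). Limma-voom with weights and block called 20, all higher (2.41% of all genes). On the 6 libraries of the comparison DESeq2 also called Atf3 and Dusp1 but not Egr1, among 428 of 16435 genes. The median log2 CPM of the 29 genes in replicates 1, 2 and 3 was 4.4, 4.3 and 0.40 in the PBS libraries. With mtDNA it was 4.86, 4.65 and 3.22, and with Ox-mtDNA 7.36, 6.61 and 3.29. Like Zfp36, the list was highest in Ox-mtDNA replicate 1, and in mtDNA it exceeded PBS far more in replicate 3 (median difference 2.92) than in replicates 1 and 2 (0.45 and 0.40). Unlike Zfp36, whose highest mtDNA library was replicate 3 (326 CPM), the list had its lowest mtDNA median there. In Ox-mtDNA against mtDNA, 28 of 29 were positive (median 1.57), at 1.66, 2.03 and 0.12 in replicates 1, 2 and 3. Zfp36 differed by 2.89, 1.85 and -1.17 in the same replicates. The part of handling in the level of Zfp36 was not tested.

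**Figure D4:**
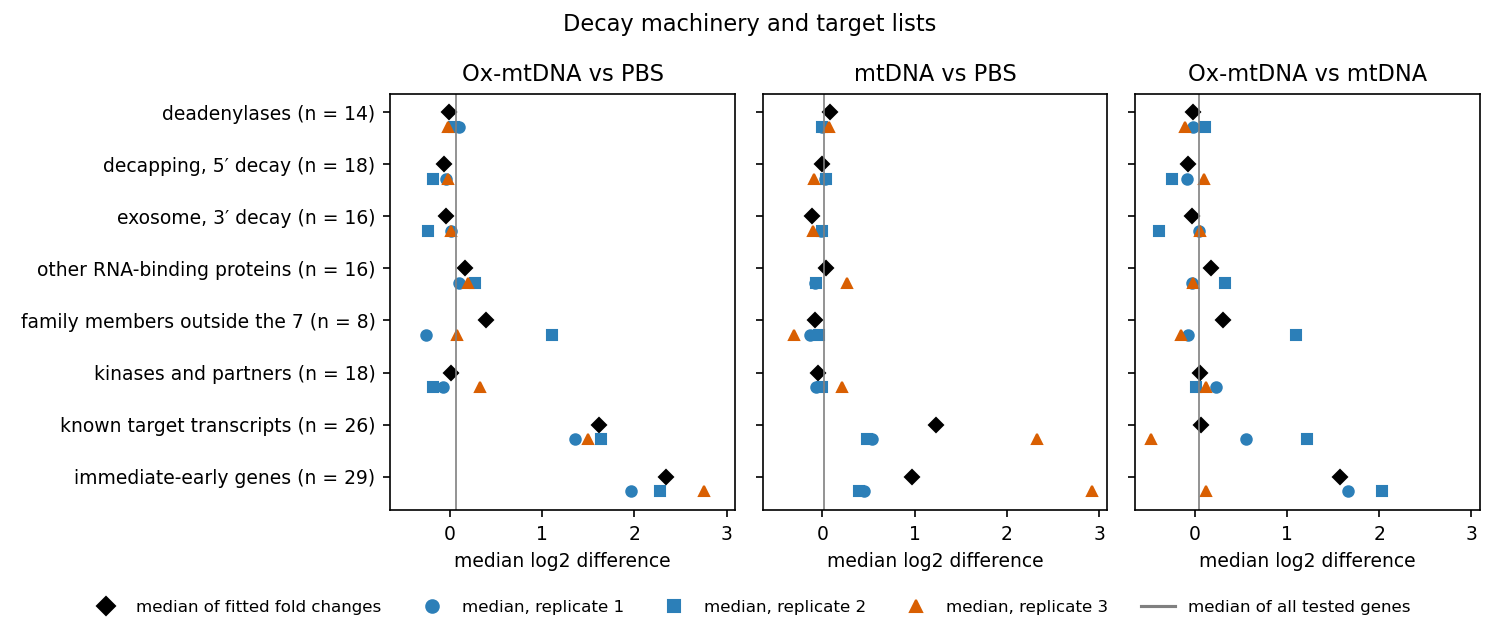
Median log2 difference of 8 gene lists in the 3 comparisons; diamonds are medians of the fitted fold changes, blue and orange symbols are the medians within each replicate number, and the grey line is the median of all tested genes. The machinery lists lie near the line, while known target transcripts and immediate-early genes have fitted medians of 1.61 and 2.34 in Ox-mtDNA against PBS.

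Genes that hold the nonamer had medians near that of all genes. Those with 3 or more copies (81 genes) had a median log2 fold change of 0.03 in Ox-mtDNA against PBS and 0.09 in mtDNA against PBS, beside 0.00 and -0.02 for all genes with a 3′ UTR. Of them, 11.1% and 7.41% had an edgeR unadjusted p under 0.05 with a higher level, beside 4.2% and 1.61% of all such genes. Their median 3′ UTR was 2773 bases long against 1145 bases overall. Tnf, Cxcl2 and Pim1 of the tested targets belong to this class.

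The patterns of the 7 genes over the 9 libraries fell into different company. Likeness was taken as the root mean square difference of log2 CPM after centring each gene on its mean, among genes of at least 10 CPM on average, so that a small value means a similar profile. Among the genes nearest to Zfp36 were Gm10382 (0.542) and 1810026B05Rik (0.569). Zfp36l1 was nearest to Epha2 (0.313), Srrm1 (0.343) and Itprip (0.347), Zfp36l2 to Setd1a (0.199), Lemd2 (0.216) and Ltbr (0.221), and Zc3h12a to Gm43361 (0.266), Nr1h2 (0.267) and Bcr (0.299). The neighbours of the last 3 shared their low replicate 3: Setd1a, for example, measured 113 to 143 CPM in replicates 1 and 2 and 1.14 to 2.32 CPM in replicate 3. Rc3h1 was nearest to Wipi2 (0.0933), Ammecr1l (0.108) and Bax (0.125), and Btg1 to Traf2 (0.168), Grb2 (0.18) and Scaf8 (0.194). Btg2 was nearest to Picalm (0.124), Ighm (0.134) and Gm16973 (0.148), of which Ighm is the abundant transcript of the B cell list. Among the 7 themselves, Rc3h1 and Btg1 (0.479) and Btg1 and Btg2 (0.48) were closest and Zfp36l2 and Btg2 (3.18) farthest apart, while Zfp36 was 1.17 from Zfp36l1 and 3.07 from Zfp36l2.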

How the data were processed

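RNA was sequenced from 9 libraries of sorted mouse pDCs, 3 per treatment. The deposited table holds raw read counts per gene, which the authors made with featureCounts over exons of GENCODE M34 (GRCm39) without using strand and with reads shared by overlapping genes counted for each, per the file headers. The submitters' processing notes name fastp 0.23.4, STAR 2.7.11b and featureCounts 2.0.1. RNA was taken up in TRIzol and libraries were made from polyA RNA with second strand synthesis that does not mark strand, per the labels' protocols. The labels do not say whether replicates are separate animals or cultures, and the p-values reflect only how far these libraries vary, which may be technical.

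Genes passing edgeR's filterByExpr (minimum count 10) were tested with its robust quasi-likelihood test (edgeR 4.0.16, R 4.3.3), TMM scaling, all 9 libraries, 1 coefficient per group and 6 residual degrees of freedom. Benjamini-Hochberg adjustment ran over 17555 genes, with 0.05 as the threshold. CPM used TMM-scaled library sizes. The main edgeR fit was tested on simulated counts with known changes and no replicate effect, and the alternative fits were not tested in this way. Alternatives used DESeq2 1.42.0, limma 3.58.1, other scalings and filters, the replicate number as a block, replicates 1 and 2 only, and leaving out each library. The random block fits and 2 further DESeq2 fits were added after seeing the data. Limma-voom with weights and block was first run with robust eBayes and changed to default eBayes after its counts were seen. Deviations from group means of same-numbered libraries correlated at 0.487 to 0.897 in all 9 pairs. Libraries of different numbers were not correlated, so these values cannot show whether the numbers pair the samples. The replicate block rests on the numbers in the titles.

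The 7 genes and all lists were chosen with earlier results of these data known. Named genes of a list are the 3 of smallest unadjusted p in a comparison, apart from exceptions stated where they stand, and the 3 genes of most similar profile for each member. For Zfp36, 1 of these 3 is not reported here. The search of 3′ UTRs, the comparison by GC content, the check of overlapping genes and the counts of separated or same-direction libraries were chosen after seeing the data. GC content and 3′ UTRs came from GENCODE M21 transcripts (GRCm38), and gene positions from the count table (GRCm39).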

Additional observations from a re-analysis of the deposited data

How the results depend on the processing

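Each of the 21 fold changes of the 7 genes was recomputed under 25 alternatives, 9 of them leaving out 1 library. Leaving out a library reversed 21 values and kept 168 on their side of the threshold and in direction, and the 16 other alternatives reversed 28, took 9 past the threshold and kept 299. The count of all genes called is where tools differed most. In Ox-mtDNA against PBS edgeR called 0, DESeq2 370, limma-voom with quality weights and replicate block 423 (420 with robust eBayes), edgeR with the replicate block 1, and edgeR on replicates 1 and 2 only 25. The robust setting of that limma-voom fit was run first, and the default setting was chosen after the robust counts were seen. 4 more alternatives were added after seeing the data. In Ox-mtDNA against PBS they called 1034 genes (limma-voom with quality weights and the replicate number as a random block), 1024 (the same with robust eBayes), 320 (DESeq2 without the filter) and 428 (DESeq2 on the 6 libraries). In mtDNA against PBS they called 1140, 1121, 10 and 23, and in Ox-mtDNA against mtDNA 703, 693, 0 and 0. Counts of calls differed with the tool and with how the block is modelled. In mtDNA against PBS edgeR called 0, DESeq2 9, and the weighted limma-voom 1337 (1340 with robust eBayes). In Ox-mtDNA against mtDNA edgeR called 0, DESeq2 1, and the weighted limma-voom 14 (14 with robust eBayes). Leaving out any 1 library gave 0 to 0 calls in each comparison. The replicate block changed no adjusted call among the 7 genes in edgeR.

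The random block called Zfp36 in Ox-mtDNA against PBS (2.6, adjusted p = 0.0125) and against mtDNA (2.22, adjusted p = 0.0289), and DESeq2 called it against PBS in all 3 of its fits (adjusted p = 0.00977 to 0.0388). Log2 fold changes near 0 turned sign. With the random block (the same with robust eBayes), Zfp36l2 was -0.62 and Rc3h1 -0.16 in Ox-mtDNA against PBS, Rc3h1 was 0.02 in mtDNA against PBS, and Zfp36l2 was -0.43, Zc3h12a -0.24 and Rc3h1 -0.18 in Ox-mtDNA against mtDNA. In Ox-mtDNA against PBS, Zfp36l2 was -0.22 in limma-voom, -0.0 without a filter and -0.18 with the replicate block, Rc3h1 was -0.04 in weighted limma-voom with the block (-0.04 with robust eBayes), and Btg2 was -0.10 there (-0.1 with robust eBayes) and -0.02 without a filter. In mtDNA against PBS, Rc3h1 was 0.0 in weighted limma-voom with the block (0.0 with robust eBayes), 0.03 in replicates 1 and 2 only and 0.04 there with the block. In Ox-mtDNA against mtDNA, Rc3h1 was -0.04 in weighted limma-voom with the block (-0.04 with robust eBayes), and Btg1 was 0.04 in replicates 1 and 2 only and 0.03 there with the block.

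Leaving out 1 library moved Ox-mtDNA against PBS from -0.76 to 0.63 for Zfp36l2, from -0.39 to 0.46 for Rc3h1 and from -0.07 to 0.24 for Btg2. In mtDNA against PBS the ranges were -0.06 to 0.86 for Zfp36l1, -0.79 to 0.35 for Zfp36l2, -0.07 to 0.98 for Zc3h12a, -0.27 to 0.04 for Rc3h1 and -0.61 to 0.11 for Btg2. In Ox-mtDNA against mtDNA they were -0.54 to 0.85 for Zfp36l2, -0.19 to 0.88 for Zc3h12a, -0.28 to 0.58 for Rc3h1 and -0.05 to 0.65 for Btg2. Zfp36 kept its sign, at 1.88 to 3.04, 0.54 to 1.72 and 0.42 to 2.10 in the same order of comparisons. In replicate 3, Zfp36l2 rests on 150, 78 and 68 counts and Zc3h12a on 29, 65 and 51, in libraries that were not the shallowest of their groups. The cause of these differences was not tested.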

Other observations

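Cxcl10, an interferon-induced chemokine on the list of known targets, had a different order of groups from Zfp36. It measured 18.5, 4.07 and 4.37 CPM in PBS replicates 1 to 3, 66.9, 22.3 and 69.6 CPM with mtDNA, and 19.0, 25.0 and 37.1 CPM with Ox-mtDNA. All treated libraries were above all PBS libraries, although Ox-mtDNA replicate 1 exceeded PBS replicate 1 only narrowly. The log2 fold change was 2.56 for mtDNA (SE 0.724, edgeR adjusted p = 1), and limma-voom with weights and block called it there (2.12, adjusted p = 0.00525). It was 1.59 for Ox-mtDNA (SE 0.701, edgeR adjusted p = 0.515), and Ox-mtDNA against mtDNA gave -0.97 (SE 0.69, edgeR adjusted p = 1). Zfp36 had its highest mean after Ox-mtDNA, whereas the 2 highest Cxcl10 libraries were both mtDNA libraries. Neither order held in every replicate number. In replicate 2, Cxcl10 was higher after Ox-mtDNA (25.0 CPM) than after mtDNA (22.3 CPM). In replicate 3, Zfp36 was lower after Ox-mtDNA (145 CPM) than after mtDNA (326 CPM). Whether the order differs between the genes was not tested.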
